A study of Mus musculus with 4 samples.

Results

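The 33 genes described here are DNA replication genes, listed by name as rows of the count tables, and all 33 were found among the 26041 gene symbols of the tables. They were grouped by role into 6 subunits of the replicative helicase (Mcm2 to Mcm7), 4 genes of origin licensing and helicase activation, 8 genes of the clamp, the polymerase and the fork, 4 genes of nucleotide supply and uracil removal (Rrm1, Rrm2, Tyms and Ung), 6 genes of chromatin and histone supply, and 5 genes of control and repair.

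Before S phase, licensing factors load the ring-shaped MCM helicase onto origins. In S phase cyclin E and partner kinases activate it, CDC45 and the GINS complex join it, and the polymerases copy DNA behind it on the sliding clamp PCNA while nucleotides and new histones are supplied. Transcription of many of these genes is driven by E2F factors at the entry into S phase, whereas mitotic genes peak later, in G2 and M. Spermatogonia, the dividing germ cells at the base of the seminiferous tubule, pass through this cycle repeatedly, and their stem cells are known to divide more slowly than their differentiating progeny. Most mRNAs of the clustered histone genes are made in S phase and end in a stem loop instead of a poly(A) tail, so libraries primed on poly(A) capture them poorly.

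RefSeq promoter windows of GRCm38.p6, running from 250 bases before to 50 bases after the start of a gene, were at hand for 25 of the 33 genes, in 28 windows. The windows of Mcm4, Gins2, Ccne2, Rfc2, Tipin, Exo1, Usp1 and Atad2 were not analysed here. The E2F motif was searched as TTTCCCGC, TTTGGCGC, TTTGCCGC or TTTCGCGC on both strands, and overlapping matches were counted separately. It was present in 10 of the 25 genes (40.0%), namely Cdc6, Clspn, Dtl, Hells, Mcm3, Mcm5, Mcm6, Mcm7, Pola1 and Uhrf1, against 704 of all 27025 genes with a window (2.61%). The windows of 4 genes are printed because, among the genes with a match, theirs varied most closely with the other 32 genes across cells. Capitals mark the E2F matches, and each sequence runs 5′ to 3′ in the direction of its gene. Hells lies at chr19:38930740-38931039 on the + strand, Mcm6 at chr1:128359656-128359955 on the - strand, Mcm7 at chr5:138171834-138172133 on the - strand and Mcm5 at chr8:75109259-75109558 on the + strand.
Hells: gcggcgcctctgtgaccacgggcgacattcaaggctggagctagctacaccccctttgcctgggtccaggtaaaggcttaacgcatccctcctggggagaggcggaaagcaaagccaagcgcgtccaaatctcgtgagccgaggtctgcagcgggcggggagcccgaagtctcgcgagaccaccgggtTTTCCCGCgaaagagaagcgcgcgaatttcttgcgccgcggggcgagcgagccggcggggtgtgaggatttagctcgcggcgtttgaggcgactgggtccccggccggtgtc
Mcm6: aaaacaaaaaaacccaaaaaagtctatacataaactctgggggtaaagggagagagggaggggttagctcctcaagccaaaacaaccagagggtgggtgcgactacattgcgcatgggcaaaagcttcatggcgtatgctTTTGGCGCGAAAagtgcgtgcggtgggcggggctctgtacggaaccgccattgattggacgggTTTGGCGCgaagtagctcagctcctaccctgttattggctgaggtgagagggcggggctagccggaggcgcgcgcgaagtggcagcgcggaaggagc
Mcm7: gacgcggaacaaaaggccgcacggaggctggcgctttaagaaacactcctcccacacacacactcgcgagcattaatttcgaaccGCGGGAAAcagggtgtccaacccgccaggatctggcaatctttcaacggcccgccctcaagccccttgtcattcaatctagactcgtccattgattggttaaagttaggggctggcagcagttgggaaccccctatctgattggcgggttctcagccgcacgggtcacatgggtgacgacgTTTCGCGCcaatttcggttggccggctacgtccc
Mcm5: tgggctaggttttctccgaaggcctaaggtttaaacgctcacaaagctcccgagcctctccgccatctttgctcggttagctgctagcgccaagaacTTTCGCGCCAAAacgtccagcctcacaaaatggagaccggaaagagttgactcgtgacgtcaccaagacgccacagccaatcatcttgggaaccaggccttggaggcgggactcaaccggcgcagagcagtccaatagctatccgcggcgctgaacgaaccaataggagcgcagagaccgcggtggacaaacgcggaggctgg

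In Hells the match began 62 bases before the start. Mcm6 held a pair of overlapping matches that began 110 and 106 bases before the start and were read on opposite strands, and another that began 47 bases before it. Mcm5 held an overlapping pair of the same kind, at 153 and 149 bases before the start, and Mcm7 held matches 165 bases before and 16 bases after it. A match is a description of the letters in the window and was not tested as a site. The CCAAT box, also searched on both strands, was in 19 of the 25 genes (76.0%), against 41.1% of all genes, and in 28 of 36 mitotic genes (77.8%). The core TTTGAA of the cell cycle homology region, found in many genes of G2 and M, was in 5 of the 25 genes (20.0%), close to the 20.2% of all genes, and in 25 of 36 mitotic genes (69.4%). E2F letters were in 1 of those 36 mitotic genes (2.78%) and in 20 of 50 replication genes outside the 33 (40.0%).

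The mice were 4 wk old, and testis cells positive for the fluorescent reporter Eomes-tdTomato, a knockin at the locus of the transcription factor Eomes that both genotypes carried, were sorted 1 per well into multiwell plates and sequenced from the 3′ end. Plzf +/+ mice are wild type for Zbtb16, which encodes the transcription factor PLZF, and Plzf lu/lu mice are homozygous for luxoid, a mutant allele carried in every cell of the animal, so the mutation is not limited to germ cells. Cells fell into 5 libraries, Plzf +/+ on plates 1, 2 and 4 and Plzf lu/lu on plates 3 and 4, with 317, 303, 277, 314 and 38 cells. Values of 5 libraries are given in that order throughout. Plates 1 to 3 held 1 genotype each, so on them plate and genotype cannot be told apart, and only plate 4 held both.

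Libraries held 254514 to 2608702 UMIs (unique molecular identifiers, each counting 1 captured molecule), with a median of 5061 to 6365 UMIs per cell, and the Plzf lu/lu library of plate 4 was the smallest. Levels are given in CPM, the UMIs of a gene per 1000000 UMIs of its library after TMM scaling. Zbtb16 was lower in Plzf lu/lu, at 76.7, 51.8 and 72.3 CPM against 18.3 and 12.1 CPM (log2 fold change -1.97, SE 0.30, edgeR adjusted p = 0.0319). Zbtb16 was lower under every alternative, though its adjusted p ran from 0.0984 to 0.346 when any library but that of plate 1 was left out, and was 0.155 in cells with Gfra1. The 5 germ cell markers took 0.192 to 0.231% of UMIs in every library. Markers of spermatids took 0.195 to 0.776% and those of Sertoli cells 0.0433 to 0.0977%, and 75 of the 1249 cells held over 1% of UMIs in the list of another cell type. Eomes itself had 44, 29, 23, 5 and 0 UMIs, a count of 0 allowing up to 3. Libraries of different plates shared 31 to 271 well barcodes, because each plate carried the same set, and the libraries of plate 4 shared 0. The labels name no animals, so p-values measure only the spread between these libraries, which may be technical, and 5 Plzf +/+ cells of plate 4 lay outside their labelled wells. In sums over a library, fewer cells that express a gene and less RNA per cell cannot be told apart.

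The share of UMIs from the 33 genes overlapped between genotypes. Its mean over cells was 0.542, 0.510 and 0.453% for Plzf +/+ against 0.507 and 0.470% for Plzf lu/lu. The genotype means were 0.502% ± 0.045 (SD, n = 3 libraries) and 0.488% ± 0.026 (SD, n = 2 libraries), a difference of -0.013 percentage points against a pooled SD of 0.035. Both Plzf lu/lu libraries lay within the range of the Plzf +/+ libraries, which themselves spanned 0.453 to 0.542%. Within plate 4 the difference had no stable direction, at 0.017 percentage points by the mean over cells, -0.0067 by summed UMIs, -0.013 in cells thinned to 2000 UMIs and 0.074 in cells thinned to 1000. A score over listed genes was given no p-value.

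Within every library the share varied between cells with an SD of 0.258 to 0.299 percentage points. In the Plzf +/+ library of plate 1 the 10th and 90th percentiles of the cells were 0.240 and 0.987%, and among Plzf lu/lu cells of plate 3 they were 0.192 and 0.872%. A Plzf +/+ cell of plate 4 reached 1.65%, and the highest cell of all, a Plzf lu/lu cell of plate 3, reached 1.89%. Cells carried a UMI of 15.3, 15.2, 13.7, 15.7 and 12.6 of the 33 genes on average. The 33 genes had 48867 UMIs in all, and Pcna, Nasp and Hells together made up 29.8% of them.

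Cells that carried UMIs of other cell types held less of these transcripts. The mean share was 0.300% in 53 cells with over 1% spermatid UMIs and 0.149% in 18 cells with over 1% Sertoli cell UMIs, the latter being somatic support cells that no longer divide at this age. Without the 75 cells of other types the genotype difference was 0.001 percentage points. Cells with a UMI of Kit or Stra8, which mark differentiating spermatogonia, held 0.594, 0.599, 0.549, 0.620 and 0.495%. These means exceeded those of all cells of the same library in every library, but the cells were also deeper, with a median of 7762 UMIs against 5942 over all cells, and the part of depth was not tested. Among cells with a UMI of Gfra1, the GDNF co-receptor of stem and progenitor spermatogonia, means were 0.584, 0.543, 0.443, 0.543 and 0.553%. Among cells without a UMI of Gfra1 they were 0.464, 0.447, 0.466, 0.485 and 0.416%. In 4 of the 5 libraries the share was higher in cells with Gfra1, and in the Plzf +/+ library of plate 4 it was lower. Cells with a Gfra1 UMI were also deeper, with a median of 6991 UMIs over all libraries against 4558, and the part of depth in this order was not tested. Among cells with Gfra1 alone the genotype difference in the share was 0.024 percentage points, with a pooled SD of 0.053.

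**Figure D1:**
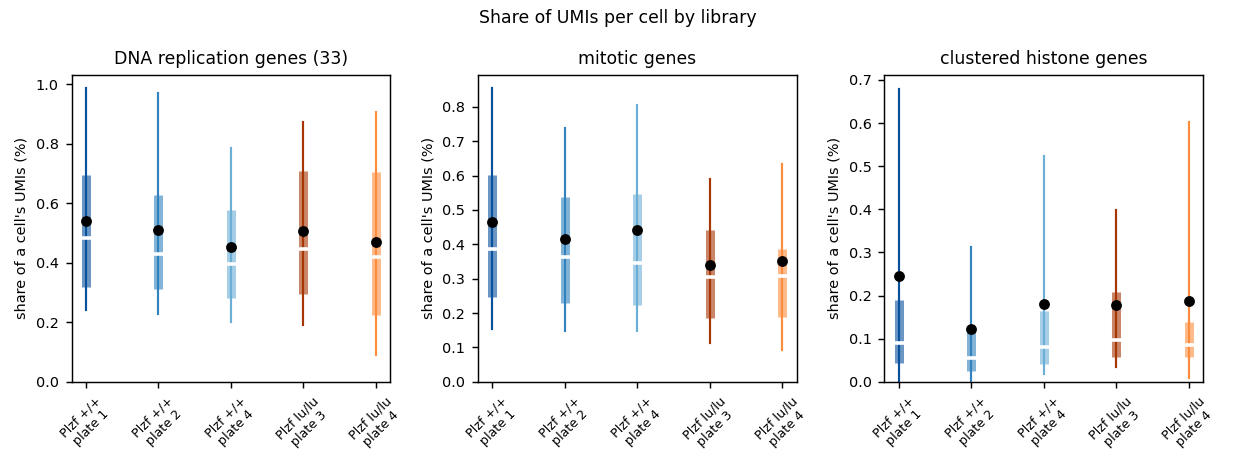
Share of a cell's UMIs (%, vertical axis) from the 33 DNA replication genes, the mitotic genes and the clustered histone genes in each of the 5 libraries. Thin lines run from the 10th to the 90th percentile of cells, thick bars from the 25th to the 75th, white dashes are medians and black points are means. Replication means of both genotypes overlap (0.453 to 0.542% and 0.470 to 0.507%), whereas both Plzf lu/lu means for the mitotic genes (0.340 and 0.352%) lie below the 3 Plzf +/+ means.

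By role, the share of the helicase subunits was 0.114% ± 0.014 (SD, n = 3) in Plzf +/+ and 0.108% ± 0.004 (SD, n = 2) in Plzf lu/lu. Origin licensing and helicase activation took 0.017% ± 0.002 (SD, n = 3) and 0.021% ± 0.001 (SD, n = 2), with both Plzf lu/lu libraries above all Plzf +/+ libraries. Control and repair took 0.036% ± 0.001 (SD, n = 3) and 0.028% ± 0.005 (SD, n = 2), with both Plzf lu/lu libraries below. Both separations were lost in cells thinned to 1000 UMIs, that of licensing and activation also in cells with Gfra1 and that of control and repair also in cells without Gfra1. Shares of the other 3 roles overlapped between genotypes in the mean over cells, but by summed UMIs chromatin and histone supply did not (0.154% against 0.142%).

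Gene by gene, the genotypes were compared on UMIs summed per library with edgeR's quasi-likelihood test over all 13728 genes that passed a filter on low counts, among them all 33. None of the 33 (0 of 33) passed an adjusted p of 0.05, where 112 of the 13728 genes did (0.816%). At an unadjusted p under 0.05 there were 3 of the 33 (Gins2, Ung and Chaf1b, all with a higher level in Plzf lu/lu), against 14.2% of all genes, and DESeq2 also called 0 of the 33. Levels were higher in Plzf lu/lu for 16 genes and lower for 17, with a median log2 fold change of -0.03, beside 0.00 over all genes tested. This balance turned with single libraries, with 22 higher and a median of 0.10 without Plzf +/+ plate 1 and 21 higher and 0.11 without Plzf lu/lu plate 4, but 11 higher and -0.12 without Plzf +/+ plate 4 and 13 higher and -0.17 without Plzf lu/lu plate 3. In the same order, the median over all genes tested was -0.009, 0.003, -0.04 and -0.09. The 95% interval of the fold change lay within 1 on the log2 scale in either direction for 28 of the 33 genes, so that a change over 2-fold lay outside it. For the other 5 (Gins2, Chaf1b, Ung, Fen1 and Usp1) the interval reached further. A p that misses the threshold does not show that levels were equal. Without the Plzf +/+ library of plate 1, edgeR called 3 of the 33 (Gins2, Ung and Usp1) beside 10.2% of all genes, and in cells thinned to 2000 UMIs 1 of 32 (Blm) beside 4.55%.

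**Figure D2:**
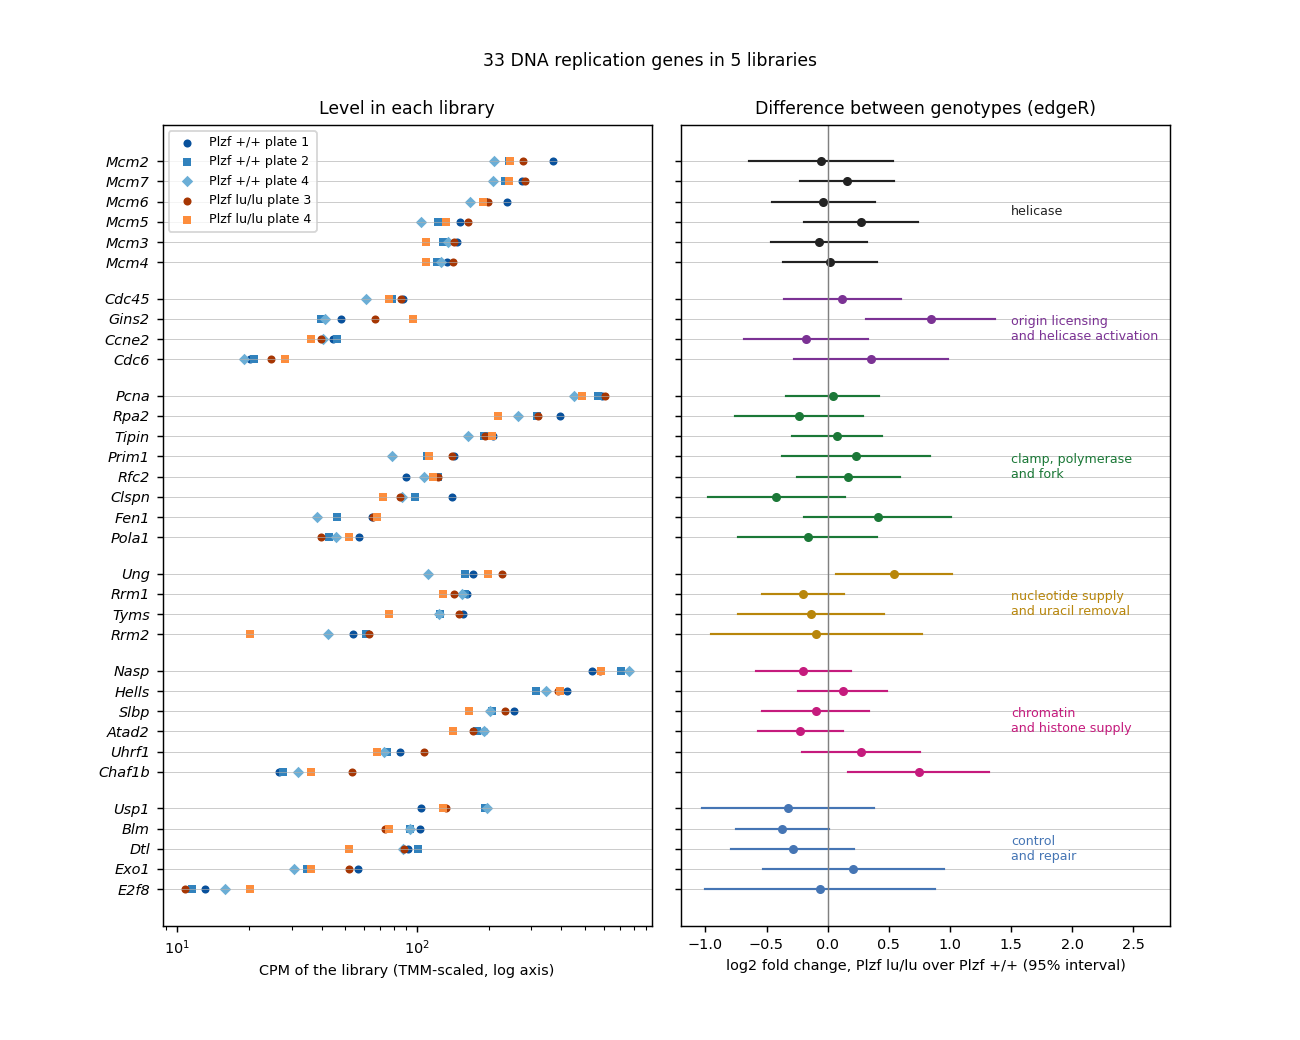
Left, level of each of the 33 genes in each library, in CPM (TMM-scaled) on a log axis, with genes ordered by role. Right, log2 fold change of Plzf lu/lu over Plzf +/+ with its 95% interval from edgeR; levels of most genes overlap between genotypes, and 3 intervals (Gins2, Ung and Chaf1b) lie above 0 before adjustment for 13728 genes.

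Both Plzf lu/lu libraries lay above all Plzf +/+ libraries for Gins2, Cdc6, Fen1, Ung and Chaf1b, and below all of them for Ccne2, Clspn, Rrm1, Atad2 and Blm. These 10 of 33 genes (30.3%) stand beside 34.4% of all genes tested, so a separation of the libraries was no more frequent than in the background. Of the 3 Plzf +/+ libraries, that of plate 1 was the highest for 24 genes and that of plate 4 the lowest for 22. On plate 4 alone the Plzf lu/lu cells were higher for 18 genes and lower for 15.

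The helicase subunits, which unwind DNA ahead of the fork, did not separate by genotype. Mcm2 was at 368, 243 and 210 CPM in Plzf +/+ and 276 and 245 CPM in Plzf lu/lu, a log2 fold change of -0.06 (SE 0.25, 95% interval -0.65 to 0.53, edgeR adjusted p = 0.990). Mcm7 was at 274, 232, 208, 283 and 241 CPM, a log2 fold change of 0.16 (SE 0.17, 95% interval -0.23 to 0.54, edgeR adjusted p = 0.781). For both genes the Plzf +/+ library of plate 4 was the lowest and the genotypes overlapped. Mcm6 was at 238, 191, 167, 197 and 189 CPM, and Mcm5 at 152, 122, 104, 164 and 133 CPM. Mcm3 stood at 146, 129, 134, 143 and 109 CPM and Mcm4 at 134, 121, 126, 141 and 109 CPM. Log2 fold changes of the 6 subunits ran from -0.07 (Mcm3) to 0.27 (Mcm5), and 0 of them separated. Because 3′ libraries count 1 end per molecule, levels are not divided by gene length, and Mcm2 and Mcm7 were above the other 4 subunits in the means of these libraries.

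Among the genes of origin licensing and helicase activation, Gins2, a subunit of the GINS complex, showed the largest difference of all 33. It was at 48.2, 39.8 and 41.5 CPM for Plzf +/+ against 66.9 and 96.5 CPM for Plzf lu/lu, from 103, 97, 81, 168 and 24 UMIs. The genotypes did not overlap, and the log2 fold change was 0.84 (SE 0.23, 95% interval 0.32 to 1.37, edgeR adjusted p = 0.155). In thinned cells the fold change of Gins2 was 0.37 (edgeR adjusted p = 0.698), and with Plzf +/+ plate 1 left out it was 0.85 (edgeR adjusted p = 0.0241). Cdc6, which loads the helicase onto origins, was at 20.1, 20.9 and 19.0 CPM against 24.7 and 28.2 CPM. Its 43, 51, 37, 62 and 7 UMIs left the log2 fold change at 0.36 with an interval of -0.27 to 0.99. Cdc45, which joins the active helicase, was at 87.0, 78.9, 61.5, 85.7 and 76.4 CPM and overlapped. Ccne2, the cyclin E2 that drives entry into S phase, was at 44.5, 46.4 and 40.5 CPM against 39.8 and 36.2 CPM, the only one of the 4 with a lower fitted level (-0.18).

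Of the clamp, polymerase and fork genes, Pcna, the sliding clamp, was at 591, 566 and 453 CPM in Plzf +/+ and 609 and 487 CPM in Plzf lu/lu. The genotypes overlapped, and the log2 fold change was 0.04 (SE 0.17, 95% interval -0.34 to 0.42, edgeR adjusted p = 0.984). The pseudogene Pcna-ps2 had 1368 UMIs beside the 5176 of Pcna, so reads may be split between these near-identical copies and the level of Pcna is uncertain. Rpa2, a subunit of the complex that coats single-stranded DNA, was at 396, 315, 264, 320 and 217 CPM, with a log2 fold change of -0.23 (SE 0.23, 95% interval -0.76 to 0.29, edgeR adjusted p = 0.749) that ran from -0.60 without Plzf lu/lu plate 3 to -0.03 without Plzf lu/lu plate 4. Its highest library was the Plzf +/+ one of plate 1 and its lowest the Plzf lu/lu one of plate 4.

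Fen1, the nuclease that trims Okazaki fragment flaps, was at 65.0, 46.4 and 38.5 CPM against 65.3 and 68.4 CPM, with the Plzf +/+ library of plate 1 close to the Plzf lu/lu library of plate 3. Clspn, which with Tipin links the fork to checkpoint signalling, was at 140, 97.8 and 86.6 CPM against 85.3 and 72.4 CPM. Clspn had the lowest fold change of the 33 (log2 -0.42, SE 0.25, edgeR adjusted p = 0.513), and its Plzf +/+ library of plate 1 stood above the rest. Without that library the fold change of Clspn was -0.16 (edgeR adjusted p = 0.632). The remaining 4 genes overlapped. Tipin was at 208, 190, 163, 192 and 205 CPM, and Prim1, the catalytic subunit of primase, at 142, 110, 79.0, 140 and 113 CPM. Rfc2, of the clamp loader, was at 89.8, 123, 107, 122 and 117 CPM, and Pola1, the catalytic subunit of polymerase alpha, at 57.6, 43.1, 46.1, 39.8 and 52.3 CPM.

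Nucleotide supply and uracil removal held 1 gene above and 1 gene below without overlap. Ung, a repair glycosylase that removes uracil from DNA and supplies no nucleotides, was at 171, 158 and 111 CPM in Plzf +/+ and 226 and 197 CPM in Plzf lu/lu. Both Plzf lu/lu libraries were above all Plzf +/+ libraries, and the log2 fold change was 0.54 (SE 0.21, 95% interval 0.07 to 1.02, edgeR adjusted p = 0.284). With Plzf +/+ plate 1 left out the fold change of Ung was 0.68 (edgeR adjusted p = 0.0218), and with Plzf +/+ plate 4 left out it was 0.32 (edgeR adjusted p = 0.769). Rrm1, the large subunit of ribonucleotide reductase, was at 161, 158 and 154 CPM against 142 and 129 CPM (log2 fold change -0.20). Rrm2, its small subunit, was at 54.3, 61.2, 42.6, 63.0 and 20.1 CPM, the last value resting on 5 UMIs. Tyms, which makes thymidylate, was at 156, 125, 124, 149 and 76.4 CPM, with the Plzf lu/lu library of plate 4 again the lowest.

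Of the genes of chromatin and histone supply, Nasp, a histone chaperone, was at 536, 708 and 768 CPM in Plzf +/+ and 582 and 587 CPM in Plzf lu/lu. It was the only one of the 6 most abundant genes whose lowest library was the Plzf +/+ one of plate 1. Its log2 fold change was -0.20 (SE 0.17, 95% interval -0.59 to 0.19, edgeR adjusted p = 0.696). Of the 5973 Nasp UMIs 1 cell held 209, and a Nasp UMI was in 77.6, 77.6, 73.6, 78.0 and 73.7% of cells. The weight of that cell in the level of Nasp was not tested. Hells, a chromatin remodeller needed for DNA methylation, was at 421, 315, 343, 389 and 394 CPM, with a log2 fold change of 0.12 (SE 0.16, 95% interval -0.24 to 0.49, edgeR adjusted p = 0.840). Both genes overlapped between genotypes. Chaf1b, a subunit of the chromatin assembly factor that deposits histones behind the fork, was at 26.7, 27.5 and 31.8 CPM against 53.8 and 36.2 CPM. The genotypes did not overlap (57, 67, 62, 135 and 9 UMIs), and the log2 fold change was 0.75 (SE 0.25, 95% interval 0.17 to 1.32, edgeR adjusted p = 0.232). With Plzf lu/lu plate 3 left out the fold change of Chaf1b was 0.32 (edgeR adjusted p = 0.849), and within plate 4 the difference was 0.19 on the log2 scale.

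Atad2, a bromodomain ATPase, was at 191, 178 and 190 CPM against 171 and 141 CPM. Slbp, which binds the stem loop of histone mRNAs, was at 254, 205, 201, 234 and 165 CPM, and Uhrf1, which reads hemimethylated DNA, at 84.7, 74.8, 72.8, 107 and 68.4 CPM. Slbp and Uhrf1 overlapped, with log2 fold changes of -0.10 and 0.27.

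The genes of control and repair had the lowest median of the 6 roles, -0.29 on the log2 scale, with 4 of 5 lower in Plzf lu/lu and 0 passing the adjusted threshold. Blm, a helicase of recombination repair, was at 102, 93.6 and 93.3 CPM against 73.7 and 76.4 CPM, without overlap (log2 fold change -0.37, SE 0.17, edgeR adjusted p = 0.370). In thinned cells the fold change of Blm was -1.06 (edgeR adjusted p = 0.0309), and in cells with Gfra1 it was -0.18 (edgeR adjusted p = 0.761). Usp1, which removes ubiquitin from PCNA, was at 104, 192 and 196 CPM against 133 and 129 CPM. Here the Plzf +/+ library of plate 1 was the lowest and the other two Plzf +/+ libraries the highest, so the genotypes overlapped, and without that library the log2 fold change of Usp1 moved from -0.32 to -0.56 (edgeR adjusted p = 0.0284). With Plzf +/+ plate 2 left out it was -0.20 (edgeR adjusted p = 0.919). Of the 1438 Usp1 UMIs 1 cell held 65, and a Usp1 UMI was in 39.7, 41.3, 47.3, 44.3 and 28.9% of cells. The weight of that cell in the fold change was not tested. Dtl, of the ubiquitin ligase that degrades licensing factors in S phase, was at 91.7, 101, 87.2, 88.5 and 52.3 CPM. Exo1, a repair exonuclease, stood at 56.6, 34.9, 30.8, 52.2 and 36.2 CPM. E2f8, a repressor of the E2F family, was the least abundant of the 33, at 13.1, 11.5, 15.9, 10.8 and 20.1 CPM.

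The other replication genes of the pathway are a list of 60. Of the 59 tested, 28 were higher and 31 lower, 0 passed the adjusted threshold and the median log2 fold change was -0.02. At an unadjusted p under 0.05 there were 5 (8.47%), beside 14.2% of all genes. Here too single libraries turned the direction, with 25 of 60 lower (median 0.10) without Plzf +/+ plate 1 and 39 of 60 lower (median -0.10) without Plzf +/+ plate 4. Cdk2 and Cdt1 (2 of 60) were called without Plzf +/+ plate 1, beside 10.2% of all genes. Casp8ap2 and Topbp1 were called without the deepest cells (2 of 59, beside 671 of 13365 genes). With no filter on low counts Casp8ap2 was called (1 of 60, beside 583 of 25737 genes). Lig1, the ligase that seals Okazaki fragments, was the most abundant at 498, 375, 312, 368 and 241 CPM (log2 fold change -0.34, edgeR adjusted p = 0.649). Rfc1, the large subunit of the clamp loader, was at 345, 264 and 287 CPM against 255 and 233 CPM (log2 fold change -0.28, edgeR adjusted p = 0.513).

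Of 39 mitotic genes tested, 31 were lower in Plzf lu/lu, with a median log2 fold change of -0.31, against 17 of 33 replication genes and 49.7% of all genes. Of these mitotic genes 0 passed the adjusted threshold in edgeR, 9 (23.1%) had an unadjusted p under 0.05 beside 14.2% of all genes, and DESeq2 called 1 (Cenpf) beside 0.976% of all genes. Cenpf and Cenpe, both of the kinetochore, were the most abundant. Cenpf was at 703, 518 and 700 CPM against 327 and 378 CPM (log2 fold change -0.87, SE 0.18, edgeR adjusted p = 0.0698), and Cenpe at 462, 360 and 415 CPM against 212 and 274 CPM (log2 fold change -0.79, SE 0.18, edgeR adjusted p = 0.0924). The mean mitotic share per cell was 0.464, 0.414 and 0.441% in Plzf +/+ and 0.340 and 0.352% in Plzf lu/lu, without overlap, and lower by 0.090 percentage points within plate 4. In cells thinned to 2000 UMIs these means still did not overlap and the difference within plate 4 was -0.059, whereas medians per cell overlapped and differed by 0 within plate 4. Set against it, the replication share was 1.17, 1.23 and 1.03 times the mitotic share for Plzf +/+, against 1.49 and 1.34 times for Plzf lu/lu. Sertoli cell markers, at 0.0536, 0.0458 and 0.0433% of UMIs in Plzf +/+ and 0.0977 and 0.0644% in Plzf lu/lu, moved with genotype too, and their part in these values was not tested. So did the 17 markers of undifferentiated spermatogonia, at 0.117, 0.118 and 0.110% of UMIs against 0.0857 and 0.0719%. A UMI of Gfra1 was in 64.7, 66.0 and 58.1% of Plzf +/+ cells and in 37.9 and 39.5% of Plzf lu/lu cells. Among cells with Gfra1 alone 34 of 39 mitotic genes were lower in Plzf lu/lu (median -0.43, beside -0.13 over all genes). Among cells without it 32 of 38 were lower (median -0.34, beside -0.01 over all genes). In cells thinned to 2000 UMIs 23 of 38 mitotic genes were lower and their median log2 fold change was -0.14, while without cells of other types 34 of the 39 were lower.

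Clustered histone genes overlapped between genotypes in their share of UMIs. Their mean share per cell was 0.246, 0.121 and 0.180% in Plzf +/+ and 0.179 and 0.187% in Plzf lu/lu, so that plate 1 was the highest and plate 2 the lowest. Of 48 tested, 39 were lower in Plzf lu/lu, against 49.7% of all genes, and 0 passed the adjusted threshold. An unadjusted p under 0.05 was reached by 2 (4.17%), a smaller fraction than the 14.2% of all genes. The median log2 fold change of these histone genes was -0.35. Without the Plzf +/+ library of plate 1 that median was 0.10 and 18 of 44 were lower. In cells thinned to 2000 UMIs, where 26 of the histone genes were tested, 13 were lower and the median was 0.02. Leaving out cells under 2000 UMIs (39 of 48 lower, median -0.35) or the deepest cells (39 of 47 lower, median -0.34) moved it little. Hist1h4d, the most abundant, was at 1024, 449, 546, 594 and 539 CPM (log2 fold change -0.24, edgeR adjusted p = 0.893), and Hist1h2ab at 269, 115, 134, 116 and 109 CPM (log2 fold change -0.60, edgeR adjusted p = 0.641). As a share of the replication share they were 0.454, 0.238 and 0.398 in Plzf +/+ and 0.353 and 0.397 in Plzf lu/lu. Reads of these multigene families can be split between near-identical copies, so levels of single histone genes are uncertain.

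Across cells, replication transcripts varied with both histone and mitotic transcripts. To remove depth, each cell was thinned to 2000 UMIs, which kept 307, 276, 251, 304 and 29 cells. The Spearman correlation of the 33 genes with the mitotic genes was 0.43, 0.50, 0.47, 0.52 and 0.57. With the clustered histone genes it was weaker in every library, at 0.28, 0.20, 0.27, 0.25 and 0.37. With the other replication genes it was above both, at 0.57, 0.61, 0.51, 0.65 and 0.63. In cells thinned to 1000 UMIs this order did not hold on average, the mean over libraries being 0.38 with the other replication genes and 0.40 with the mitotic genes. At that depth the other replication genes were below the mitotic genes in both libraries of plate 4 (0.27 against 0.37 in Plzf +/+, 0.28 against 0.55 in Plzf lu/lu). Correlations with differentiating spermatogonia markers ran from 0.10 to 0.20 and with undifferentiated markers from -0.04 to 0.13. These correlations describe cells that share a library, and cells are not replicates.

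Cells were put into 4 bands by their UMIs of the 33 genes out of 2000, holding 0 to 6, 7 to 9, 10 to 13 and 14 to 40 UMIs (349, 268, 259 and 291 cells). Mean histone UMIs per cell over all libraries were 2.09, 2.48, 3.70 and 6.51 in the 4 bands. Mean mitotic UMIs climbed in more even steps, at 5.58, 7.49, 9.76 and 11.4. In each of the 5 libraries histone UMIs were highest in the top band, from 4.63 in the Plzf +/+ library of plate 2 to 8.56 in that of plate 1. In that top band mitotic UMIs were 13.4, 12.0 and 11.7 in Plzf +/+ and 9.25 and 8.86 in Plzf lu/lu, without overlap, the last value resting on 7 cells. This did not hold in the neighbouring bands, where the Plzf lu/lu library of plate 4 was above all Plzf +/+ libraries, at 10.0 against 7.58 to 8.12 in the second band and 14 against 9.37 to 11.5 in the third, each from 5 cells. In the lowest band mitotic UMIs were 6.64, 5.65 and 6.19 in Plzf +/+ and 4.45 and 3.33 in Plzf lu/lu, without overlap, the last from 12 cells. Spermatid UMIs fell over the bands, with means of 14.7, 5.31, 2.39 and 1.26 per cell. Without cells of other types the mean correlation over libraries was 0.24 with histones and 0.45 with mitotic genes, beside 0.27 and 0.50 with them.

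**Figure D3:**
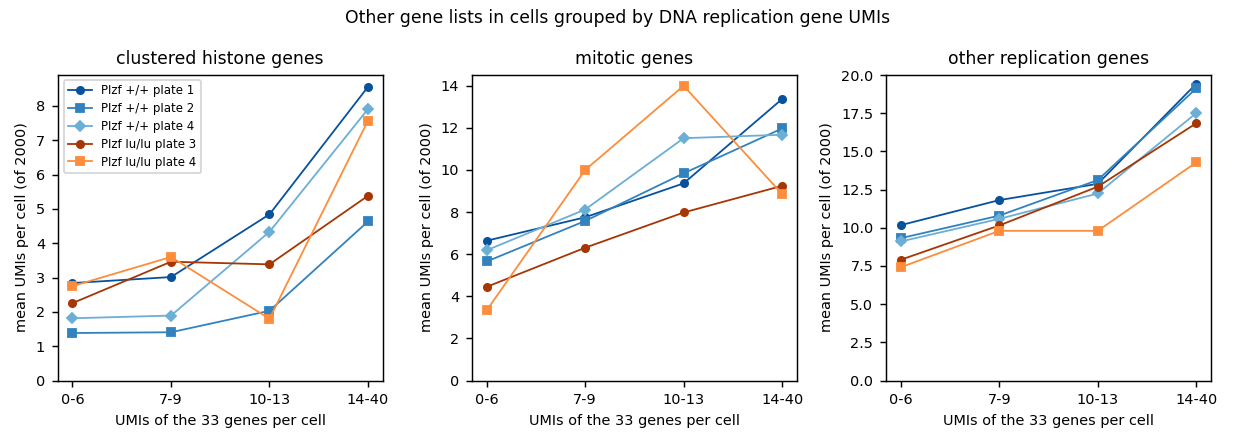
Mean UMIs per cell (of 2000) of the clustered histone genes, the mitotic genes and the other replication genes in cells grouped by their UMIs of the 33 DNA replication genes (horizontal axis), 1 line per library. Histone UMIs are highest in the top band in all 5 libraries; the Plzf lu/lu library of plate 4 has 5 to 12 cells per band.

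Cells at the top of the lists overlapped in part. Histone-rich cells were those with over 10 histone UMIs of 2000, mitotic-rich cells those with over 16 mitotic UMIs, and replication-rich cells those with over 19 UMIs of the 33 genes, each the upper 10% of cells or slightly fewer. Of the 105 replication-rich cells 20 were also histone-rich and 20 also mitotic-rich. By library, 12 of 40, 3 of 25 and 5 of 12 replication-rich cells in Plzf +/+ were also histone-rich, and in Plzf lu/lu 0 of 26 and 0 of 2 were. In the wider band of 14 to 40 UMIs of the 33 genes the genotypes overlapped. There 28.4, 15.5 and 30.2% of Plzf +/+ cells and 12.4 and 28.6% of Plzf lu/lu cells were histone-rich, the last from 7 cells. Histone-rich cells were 13.7, 5.43 and 9.56% of all Plzf +/+ cells and 6.91 and 10.3% of all Plzf lu/lu cells, which overlapped, and the difference between genotypes in these counts was not tested. Mitotic-rich cells were 12.7, 10.5 and 8.76% of Plzf +/+ cells and 4.61 and 6.90% of Plzf lu/lu cells. Replication-rich cells were 13.0, 9.06 and 4.78% of Plzf +/+ cells and 8.55 and 6.90% of Plzf lu/lu cells, which overlapped. The mean UMIs of the 33 genes were 15.2, 17.1, 14.8, 12.2 and 11.7 in histone-rich cells, against 10.4, 10.2, 8.82, 10.0 and 8.85 in the cells that were not. In mitotic-rich cells they were 14.2, 16.2, 12.1, 13.3 and 11.0. Both kinds of cells were above the rest in every library, the Plzf lu/lu ones of plate 4 resting on 3 and 2 cells.

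Single genes differed in how they followed the rest. Over the 4 larger libraries, Pcna had the highest mean correlation with the other 32 genes (0.38, from 0.23 to 0.49), followed by Rrm2 (0.29), Ung (0.28), Hells (0.27) and Mcm6 (0.27). Rfc2 (0.03), Chaf1b (0.08), Ccne2 (0.08) and Usp1 (0.09) were the lowest. Rrm2 stood high although it had a UMI in 9.25% of thinned cells, whereas Rfc2 had one in 17.7%. Sparse counts limit such values, so a low correlation is no finding.

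With the clustered histone genes, Prim1 (0.18), Hells (0.15), Tipin (0.14) and Pcna (0.14) correlated most, and Mcm2 (0.00) and Blm (-0.01) least. With the mitotic genes, Pcna (0.27), Nasp (0.24) and Rrm1 (0.22) led. By the median over the genes of a role, nucleotide supply and uracil removal had the highest correlations with the other genes (0.26), with histones (0.12) and with mitotic genes (0.18), and without Ung its medians were 0.24, 0.13 and 0.19. The helicase subunits followed the other genes nearly as closely (0.22) but had 0.05 with histones and 0.13 with mitotic genes.

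**Figure D4:**
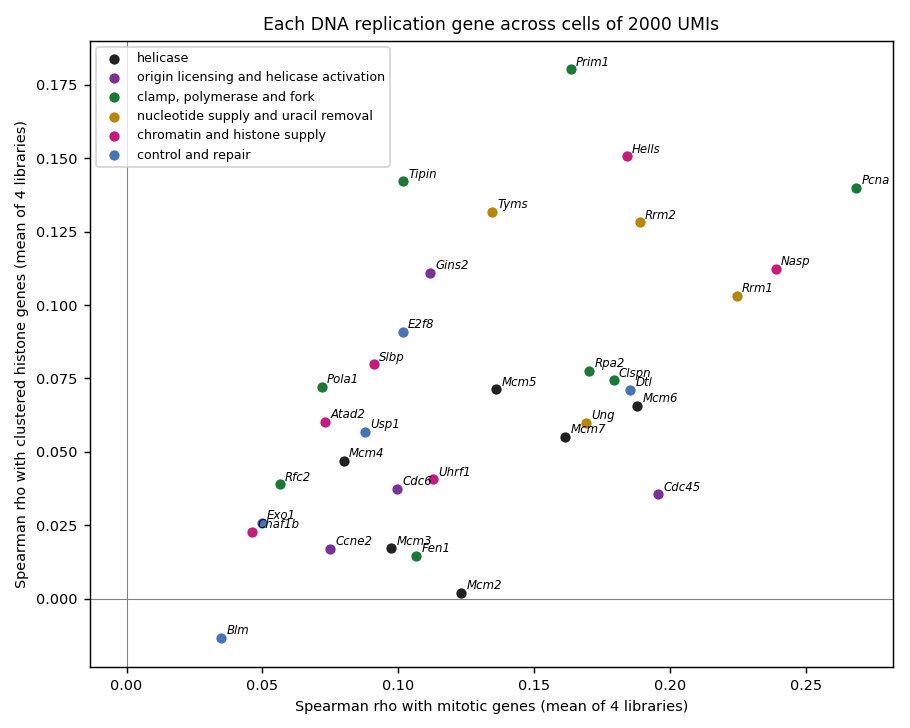
Mean Spearman correlation of each of the 33 genes with the mitotic genes (horizontal axis) and with the clustered histone genes (vertical axis) across thinned cells of the 4 larger libraries, coloured by role. Pcna lies farthest right (0.27), Prim1 highest (0.18), and Mcm2 near 0 on the histone axis.

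In cells rich in histone but not mitotic transcripts, Prim1 stood at 283 CPM, and in cells rich in mitotic but not histone transcripts at 280 CPM, against 97.1 CPM in cells rich in neither. Rrm1 likewise was at 313 and 274 CPM against 132 CPM. Mcm3 did not follow, at 102 and 101 CPM against 123 CPM. These are sums over cells of all libraries, in which the Plzf +/+ library of plate 1 supplied 42 of the 105 histone-rich cells.

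Among 4059 genes outside the 33 with a UMI in at least 10% of thinned cells, the genes most like the summed 33 across cells, by mean Spearman correlation over 5 libraries, were Lig1 (0.41), Top2a (0.37), Mki67 (0.35), Tuba3a (0.33), Srsf2 (0.30), Hmgb2 (0.30), Pcna-ps2 (0.29), Pbk (0.28), Hnrnpab (0.28) and Tuba3b (0.27). The median gene was at 0.03. For Lig1 the 5 values were 0.42, 0.31, 0.35, 0.48 and 0.48, and for Tuba3a they were 0.38, 0.30, 0.33, 0.31 and 0.34, the latter gene encoding an alpha tubulin of germ cells. Reads of Pcna-ps2 and Pcna may be split between the copies, so the place of Pcna-ps2 in this order is uncertain.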

How the data were processed

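The data are 3′ end sequences of single testis cells of Plzf +/+ and Plzf lu/lu mice from 4 plates, and the authors deposited 1 table of raw UMI counts per genotype, with gene symbols in rows, cells in columns and no normalization. The submitters' processing notes name bcl2fastq 2.18.0.12, STAR 2.5.4a, Picard 2.9.3 and the build GRCm38, without their settings. The ending of each cell's name, read against the labels, gave its library, and cells of plate 4 took the genotype of the table that held them. Replicates are libraries, and 0 columns of other series were used.

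UMIs were summed per library and fitted with edgeR 4.0.16 in R 4.3.3 (filterByExpr, TMM, glmQLFit with robust estimation, glmQLFTest), and an adjusted p (Benjamini-Hochberg over all 13728 genes) under 0.05 was called; the procedure was tested on simulated data. With 3 libraries against 2, an exact permutation test cannot reach that level and was not used. SEs are the log2 fold change over the square root of F. DESeq2 1.42.0 was an alternative. For relations across cells, each cell was thinned without replacement to 2000 UMIs (seed 1), leaving out shallower cells (63 of 897 Plzf +/+ and 19 of 352 Plzf lu/lu). Unthinned shares are given too. No cells were removed as doublets; cells over 4 times the median depth were left out as an alternative. Depth was 612 to 95069 UMIs per cell, and depth limits the rarer genes. The 95% intervals of fold changes come from the edgeR fit and include the spread between libraries, and the limit of 3 for a count of 0 covers counting error only.

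The members, the lists of other replication, mitotic and clustered histone genes and the marker lists were chosen with earlier results of these data known. Full statistics were given to members past the threshold (there were none) and the 6 of highest mean CPM; for Gins2, Ung, Chaf1b, Clspn and Blm they were added after their values were seen. For other lists the 2 genes of highest mean CPM were named, and for likeness across cells the 10 genes of highest mean correlation.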

Additional observations from a re-analysis of the deposited data

How the results depend on the processing

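The genes called among all genes tested were 112, and the members called 0. Gene calls numbered 583 with no filter on low counts, 226 without cells of other types, 671 without the deepest cells, 406 in cells thinned to 2000 UMIs, 11 in cells with Gfra1 and 48 in cells without it, and from 1 to 1387 when 1 library was left out, the highest without the Plzf +/+ library of plate 1 and 1, 1, 1 and 6 without the other libraries. Members called ran from 0 to 3 with 1 library left out: without Plzf +/+ plate 1 they were Gins2, Ung and Usp1. In thinned cells 1 of 32 tested was called (Blm), and in the remaining 13 alternatives 0 were. The genotype difference in the replication share lay between -0.038 and 0.007 percentage points with 1 library left out, within the pooled SD of 0.035 of its main value, as it did with summed UMIs, with the median per cell, in cells thinned to 2000 or 1000 UMIs, without cells of other types and without the 3 members of most UMIs; in cells with Gfra1 it was 0.024. The mean correlation with mitotic genes was 0.40 in cells thinned to 1000 UMIs, where that with the other replication genes was 0.38. The count of mitotic genes lower in Plzf lu/lu was between 23 (of 38, in thinned cells) and 34 over 15 alternatives. From 0 to 6 mitotic genes were called, and these counts were added after seeing the data. With no filter 6 of 40 were called, beside 583 of 25737 genes. Without Plzf +/+ plate 1 there were 6 of 39, beside 10.2% of all genes.

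Some log2 fold changes of members changed sign, none of them past the threshold with the new sign. In thinned cells these were Mcm3 0.054, Rrm1 0.022, Uhrf1 -0.26, Slbp 0.26, Tyms 0.12, Rfc2 -0.13 and Nasp 0.048. In cells with Gfra1 they were Mcm2 0.041, Mcm3 0.11, Pcna -0.010 and Tipin -0.11. In cells without Gfra1 they were Mcm4 -0.13, Mcm7 -0.13, Rrm2 0.29, Cdc45 -0.057, Slbp 0.018, Hells -0.17, Pola1 0.15, E2f8 0.21, Exo1 -0.048 and Usp1 0.10. Mcm4 was at -0.0025 in DESeq2, -0.0055 with RLE scaling, -0.025 with no filter, -0.028 without other cell types and -0.0083 without the deepest cells, and Pcna at -0.0095 with no filter and -0.011 without the deepest cells. Leaving out 1 library gave ranges of -0.069 to 0.25 for Cdc45, -0.33 to 0.56 for E2f8, -0.19 to 0.58 for Exo1, -0.28 to 0.23 for Mcm2, -0.35 to 0.062 for Mcm3, -0.24 to 0.14 for Mcm4, -0.20 to 0.12 for Mcm6, -0.16 to 0.18 for Pcna, -0.30 to 0.079 for Pola1, -0.025 to 0.48 for Prim1, -1.40 to 0.25 for Rrm2, -0.43 to 0.083 for Slbp, -0.063 to 0.15 for Tipin, -0.84 to 0.14 for Tyms and -0.20 to 0.46 for Uhrf1. Without a change of sign, the ranges were 0.0025 to 0.29 for Mcm7, 0.034 to 0.25 for Hells, -0.60 to -0.026 for Rpa2 and -0.34 to -0.14 for Nasp. The cause of these shifts was not tested. No paired analysis was possible because replicate numbers were given in accession order and pair no samples, and a fit with plate as a block leaves no residual degrees of freedom over 5 libraries. Where 1 Plzf lu/lu library was left out, the lone library was assumed to vary like the Plzf +/+ libraries.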

Other observations

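The replication share was also read in cells with a UMI of stem or progenitor cell genes. Cells with a UMI of Id4, a transcriptional inhibitor of stem and progenitor spermatogonia, held 0.591, 0.551 and 0.469% for Plzf +/+ against 0.534 and 0.553% for Plzf lu/lu, the values of both genotypes overlapping. Cells with a UMI of Lin28a, an RNA-binding protein of progenitors, held 0.520, 0.516, 0.446, 0.489 and 0.426%. Cells with a UMI of the T-box factor T held 0.587, 0.591 and 0.496% in the 3 Plzf +/+ libraries (49, 52 and 33 cells), and the 4 such cells of plate 3 held 0.773%. For Eomes these means were 0.607, 0.534 and 0.511% (38, 27 and 20 cells) and 0.823% in 4 cells of plate 3. The median depth of these 89 Eomes cells was 7579 UMIs, against 5942 over all cells. Cells with a UMI of Id4, Lin28a or T were deeper too, with medians of 7447.5, 7845.5 and 6457 UMIs. The 4 Eomes and 4 T cells of plate 3 had medians of 13845.5 and 10363.5 UMIs. The part of depth in all these shares was not tested.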
